A study of Mus musculus with 2 samples.

Results

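In total, 10 genes of the Toll-like receptor system were followed in immune cells of mouse pancreatic islets: the receptors Tlr1, Tlr2, Tlr3, Tlr4, Tlr7, Tlr9 and Tlr13, the co-receptor Cd14, and the adaptors Myd88 and Ticam1. They were taken by symbol from the gene table of the matrix, and all 10 were found among its 32285 genes. The cells came from islets of 6 to 8 male C57BL/6J mice, labelled WT (the design text has "myeloid WT"), pooled and sorted as live DAPI- Epcam- CD45+ cells. They were stained with oligonucleotide-tagged antibodies to CD9 and CD206 (the design text names the CD9 antibody alone) and read as 1 mRNA and 1 antibody library. No age, treatment or second genotype is given in the labels, and the mice cannot be separated, so that no difference below has a replicate check and no p-value is given.

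Toll-like receptors recognise microbial and cellular molecules through a leucine-rich ectodomain and signal through a cytoplasmic TIR domain. Tlr1, Tlr2 and Tlr4 sit at the cell surface: TLR2 binds lipopeptides, paired with TLR1 or TLR6, and TLR4 binds lipopolysaccharide together with MD-2 (Ly96) and CD14, a protein that hands lipid ligands over. TLR3 (double-stranded RNA), TLR7 (single-stranded RNA), TLR9 (unmethylated CpG DNA) and TLR13 (bacterial ribosomal RNA) work in endosomes, which they reach with the chaperone UNC93B1. MyD88 is the adaptor of all of these except TLR3 and leads to NF-kB and its output such as Il1b, whereas TRIF (Ticam1) serves TLR3 and endosomal TLR4 and leads to type I interferon, whose output includes Ifit3.

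Every value is a count of unique molecular identifiers (UMIs, 1 per captured mRNA molecule), added up over a class of cells and divided by the UMIs of all genes in that class, on the usual CPM scale. The count is per molecule and was not divided by gene length. Brackets hold 95% intervals, which cover counting error only: exact Poisson for a level, exact conditional binomial for a ratio of 2 levels and Clopper-Pearson for a share of cells. A ratio of at least 1.5 either way, with at least 100 UMIs in the 2 sums, is called a difference, and the share of all genes that pass this rule stands beside each first count.

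Of 2237 barcodes, 2175 cells were kept, and the median barcode held 19352 RNA UMIs (quartiles 13191 and 24852). Macrophages were the 1792 cells with at least 2000 CPM of C1qa, C1qb and C1qc summed (median depth 20200 UMIs), and 56 cells lay between 1500 and 2500 CPM. The 9 macrophage markers outside this gate summed to 11728 CPM in these cells, 192 CPM in lymphocytes, 572 CPM in dendritic-like cells and 8478 CPM in 17 monocyte-like cells, whose cluster also passed 4 neutrophil markers. Single genes carried these sums: Apoe held 8946 CPM in macrophages and Lyz2 6776 CPM in monocyte-like cells. In the monocyte-like cells Apoe was at 640 CPM and Mertk at 0. Cells below the gate were named from their cluster's markers, and each name is to be read as "-like". There were 109 T and NK cells and 29 B cells (138 lymphocytes, median depth 8974 UMIs) and 51 dendritic-like cells (median depth 24262 UMIs). The dendritic-like cluster passed 13 of 18 dendritic and 7 of 9 cycling markers, its 10 leading genes held Top2a, a cycling gene, and none of the listed dendritic markers, and 27.1% of its cells passed the C1q gate and counted as macrophages. In all, 33 gated cells lay in clusters named as another type. RNA from other cells was present: in lymphocytes the 9 macrophage markers stood at a median of 1.73% of their macrophage level, from 0 for Mertk to 5.44% for Cx3cr1. The 8 lymphocyte UMIs of Cx3cr1 all lay in T and NK cells, and whether they came from other cells was not tested.

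All 10 genes were detected in macrophages. Cd14 was by far the most abundant, at 1828 CPM (1814 to 1842) with a UMI in 96.9% of macrophages, followed by Tlr2 at 373 CPM (367 to 379) in 89.2%. Tlr7 stood at 81.8 CPM (78.9 to 84.8; 62.4% of cells) and Tlr1 at 57.0 CPM (54.6 to 59.6; 50.7%). Then came Tlr4 at 42.1 CPM (40.0 to 44.3; 40.4% of cells), Tlr13 at 38.8 CPM (36.8 to 40.8; 43.3%) and Myd88 at 37.4 CPM (35.4 to 39.4; 46.9%). The ratio of Tlr4 to Tlr13 was 1.09 (1.01 to 1.17), a difference just past counting error, and that of Tlr13 to Myd88 was 1.04 (0.962 to 1.12), within it. Ticam1 had 27.6 CPM (25.9 to 29.4; 37.4% of cells). Tlr3 at 8.18 CPM (7.28 to 9.16; 10.9% of cells) and Tlr9 at 7.35 CPM (6.50 to 8.29; 13.1%) were lowest, with a ratio of 1.11 (0.940 to 1.32), within counting error. Reads of Tlr1 and Tlr6, which have near-identical stretches, may not all have been told apart, and Tlr6 stood at 8.51 CPM.

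**Figure D1:**
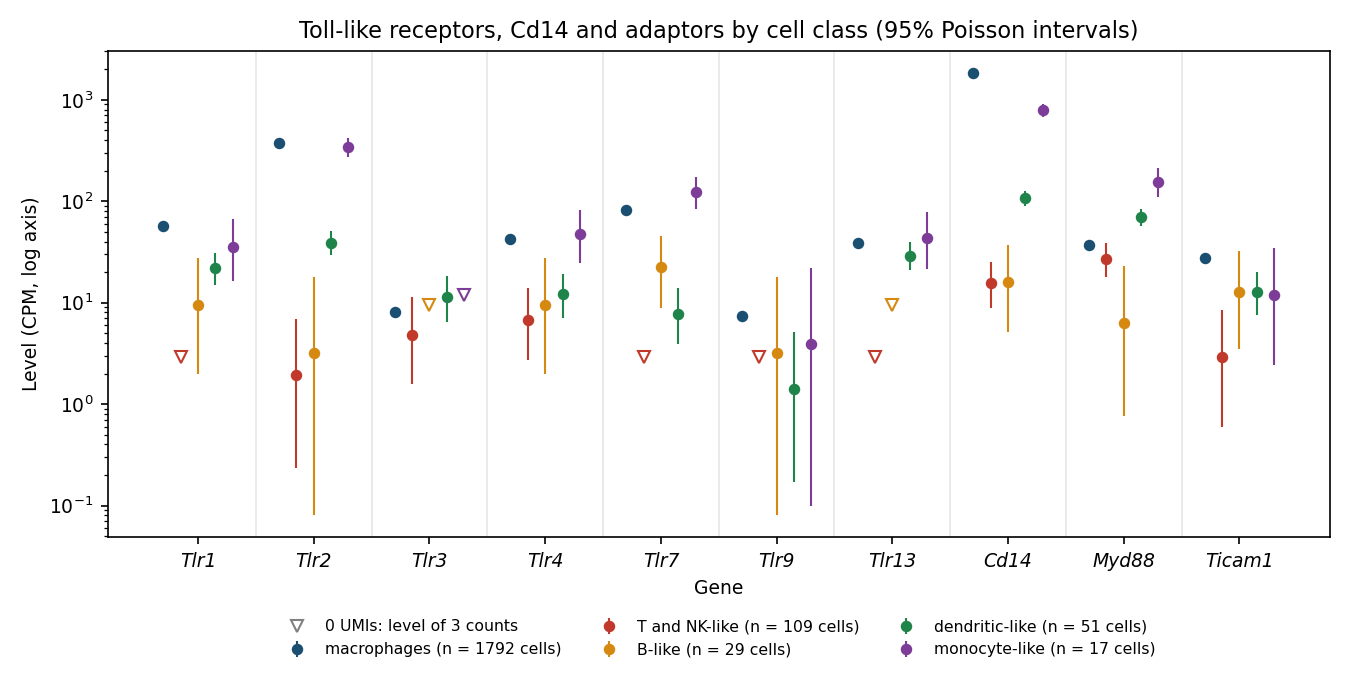
Level (CPM, log axis) of each gene in 5 cell classes, with 95% Poisson intervals; open triangles mark classes with 0 UMIs, drawn at the level that 3 counts would give. Cd14 and Tlr2 lie far above their lymphocyte levels (1828 against 15.6 CPM and 373 against 2.22 CPM), whereas Myd88 is highest in the monocyte-like and dendritic-like cells.

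Against lymphocytes, all 10 genes were at least 1.5-fold higher in macrophages, a call that 23.4% of 10194 genes also met, while 49.1% were called lower. Their median log2 ratio was 3.65, beside -0.62 over all genes tested. Among the surface receptors Tlr2 differed most, with 3 UMIs in all lymphocytes (2.22 CPM) and a ratio of 168 (57.4 to 814). Cd14 was 117-fold higher (76.8 to 190), from 15.6 CPM in lymphocytes. These lymphocyte levels of Cd14 and Tlr2 are 0.851% and 0.596% of the macrophage level, inside the range of the macrophage markers. That range starts at 0, and whether the 2 levels are RNA from other cells was not tested. Tlr1 was 25.7-fold higher (8.77 to 125), with all 3 of its lymphocyte UMIs in B cells, and Tlr4 was 5.68-fold higher (3.08 to 11.9), from 7.41 CPM.

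Of the endosomal receptors, Tlr13 had 0 UMIs in 138 lymphocytes, which at the limit of 3 counts allows a UMI in up to 2.17% of cells at this depth (Clopper-Pearson upper bound 2.64%), and was at least 17.4-fold higher in macrophages when lymphocytes are set at 3 counts. Tlr7 was 15.8-fold higher (7.65 to 39.3), and its 7 lymphocyte UMIs all lay in B cells, at 22.2 CPM (8.95 to 45.8) or 27.2% of the macrophage level, against 0 UMIs in T and NK cells. Tlr9 had 1 UMI in lymphocytes and a ratio of 9.93 (1.77 to 394). Tlr3 was closest, at 3.70 CPM in lymphocytes (5 UMIs, 4 of them in 1 cell) and a ratio of 2.21 (0.935 to 6.85). Without the top cell of each group this ratio was 10.8 (1.92 to 426), and without the macrophage cluster led by Ifit3 it was 0.911 (0.377 to 2.87).

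Myd88 stood at 27.0 CPM (18 to 39.1) in T and NK cells, where 15.6% of cells held a UMI, and at 6.36 CPM (2 UMIs) in B cells. Its macrophage level was 1.68-fold that of lymphocytes, with a lower bound of 1.17, and 1.47-fold (1.02 to 2.20) without the Ifit3-led cluster. Ticam1 was 5.32-fold higher in macrophages (2.57 to 13.3), from 5.19 CPM in lymphocytes. At 59.4% and 18.8% of the macrophage level, Myd88 and Ticam1 in lymphocytes lay above the range of the macrophage markers, and so did Tlr3 at 45.3%, Tlr4 at 17.6%, Tlr9 at 10.1% (on 1 UMI) and Tlr7 at 6.34%. The intervals of Tlr9 (0.254 to 56.6%) and Tlr7 (2.55 to 13.1%) reach into that range.

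The other pathway genes are given by list. Of the other receptors and co-receptors, 7 of 10 had 100 UMIs, and 7 of 7 were higher in macrophages than in lymphocytes. Cd36, a scavenger receptor that presents lipids to TLR2, was at 743 against 11.1 CPM. Tlr8 was at 20.5 CPM against 0 UMIs, 9.22-fold higher when lymphocytes are set at 3 counts. The trafficking list had 9 of 9 higher, among them Unc93b1 (551 against 51.9 CPM) and the endosomal proteases Ctss (31.9-fold), Ctsb and Lgmn. Adaptors and proximal kinases were mixed, with 6 higher, among them Ticam2 (TRAM, the TLR4 bridge to TRIF) at 17.9 against 1.48 CPM, and 5 lower, among them Ikbke at 11.6 against 40.7 CPM, of 21 measured. Irak1, Irak4 and Traf6, the kinases and ligase below MyD88, had ratios of 0.997 (0.740 to 1.37), 1.02 (0.723 to 1.49) and 0.826 (0.624 to 1.12). Of 10 transcription factors 2 were higher and 2 lower, with Irf5 at 5.50-fold and Irf3 at 0.386-fold of lymphocytes. Among 17 negative regulators 6 were higher, Tnip3 most clearly (616 against 5.93 CPM), and 3 lower, including Cyld at 0.286-fold. The output lists followed the cell class, with 12 of 13 NF-kB and 10 of 13 interferon genes higher in macrophages, and so did the dissociation-induced genes (11 of 14 higher).

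Dendritic-like cells differed from macrophages in which genes they held. Tlr3, Tlr13 and Myd88 were not higher in macrophages, and the other 7 genes were, beside 22.7% of 10026 genes called higher and 27.8% called lower. The median log2 ratio of the 10 genes was 1.59, against -0.19 over all genes. Cd14 was 1828 against 107 CPM (17.1-fold, 14.5 to 20.2) and Tlr2 was 373 against 39.0 CPM (9.56-fold, 7.34 to 12.7). Tlr7 was 81.8 against 7.80 CPM (10.5-fold, 5.85 to 21.0), with 7 of the 11 dendritic UMIs in 1 cell. Its ratio was 28.1 without the top cell of each group and 5.88 when the 10% of cells with the most hormone and acinar enzyme RNA were left out. Without the top cells the Tlr1 ratio, 2.59 (1.82 to 3.83) with all cells, was 4.12, since 1 dendritic-like cell held 12 of 31 Tlr1 UMIs. Tlr4 was 3.49-fold higher (2.17 to 6.01), Ticam1 2.16-fold (1.36 to 3.66), and Tlr9 5.18-fold (1.42 to 43.0) on 2 dendritic UMIs.

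Myd88 was the 1 gene lower in macrophages: 37.4 CPM (35.4 to 39.4) against 69.5 CPM (56.4 to 84.7) in dendritic-like cells, a ratio of 0.538 (0.438 to 0.667). It was detected in 72.5% of those cells and in 46.9% of macrophages. The 17 monocyte-like cells had 154 CPM of Myd88 (110 to 211) and a UMI in 94.1% of cells. Tlr13 did not pass the call (38.8 against 29.1 CPM, 1.33-fold, 0.978 to 1.87). Tlr3 was at 8.18 against 11.3 CPM (0.720-fold, 0.436 to 1.28), and its ratio was 0.297 (0.174 to 0.541) without the Ifit3-led macrophage cluster. Of 21 other adaptors and kinases 9 were lower in macrophages and 4 higher, with a median log2 ratio of -0.14, near the -0.19 of all genes. Irak4 (0.518-fold, 0.405 to 0.673), Irak1 (0.571-fold), Traf6 (0.620-fold) and Ticam2 (0.561-fold) were among the 9. Ly96 was nearly level (46.0 against 49.7 CPM). Tlr11, a receptor for profilin-like proteins, had 14 UMIs in 51 dendritic-like cells (9.93 CPM, 5.43 to 16.7) and 10 in 1792 macrophages (0.274 CPM). The 23 endothelial-like cells had 101 CPM of Tlr4 (71.1 to 139), above the 42.1 CPM of macrophages, and 0 UMIs of Tlr1, Tlr9 and Tlr13. Their endothelial markers summed to 9146 CPM and their stromal markers to 4578 CPM (7 of 7 detected, Dcn at 1441 CPM), so that the Tlr4 cannot be given to either type, and both are types that a CD45+ sort should remove.

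When each cell was thinned to 5000 UMIs (1669 macrophages, with 123 shallower ones left out), 10.8% held none of the 7 receptor genes, 37.3% held 1, 33.3% held 2 and 14.6% held 3. Without thinning, and so with depth, the share of cells with Tlr2 was 89.2%, against 72% after it, and Tlr7 went from 62.4 to 31.1%. Tlr2 was found in 74.7% (69.8 to 79.2) of Tlr1-positive and 71.3% (68.8 to 73.7) of Tlr1-negative cells. Ly96, the partner of TLR4, was found in 23.0% (18.4 to 28.2) of Tlr4-positive and 20.2% (18.1 to 22.5) of Tlr4-negative cells. Ticam1 was in 11.8% of 51 Tlr3-positive and 13.4% of the other cells. Each pair of intervals overlaps.

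The 10 macrophage clusters with at least 25 gated cells were built without these 10 genes and the other receptor, adaptor and regulator genes (80 in all), whereas output genes such as Ifit3 and Il1b took part. Of the 10 genes, 7 were at least 1.5-fold higher in some cluster than in the other macrophages, beside 69.1% of all genes, so that this count is near the background. The genes differed in which cluster held most. Cluster 0 (340 cells, led by Ifit3, Ifit2, Cmpk2 and Rsad2, all interferon-induced) had 26.1 CPM of Tlr3 (22.6 to 29.9) and the next cluster 5.76 CPM, with a ratio of 8.24 (6.38 to 10.7) to the other macrophages. It also had the most Tlr7, 136 CPM (128 to 145; 2.01-fold), the most Myd88, 54.7 CPM (49.6 to 60.2; 1.71-fold), and 10.9 CPM of Tlr9 (1.68-fold). These 4 of the 10 genes passed the call in cluster 0, beside 7.45% of all genes. Tlr9 passed it in cluster 1 as well, at 10.4 CPM (1.51-fold, 1.12 to 2.03), where Ifit3 stood at 29.1 CPM. Tlr8, the neighbour and relative of Tlr7, was at 43.2 CPM in cluster 0, 3.01-fold above the other macrophages.

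Tlr4 was spread differently. Cluster 13 (28 cells, led by Gm47507 and Tll2) had 173 CPM (132 to 222), 4.25-fold above the others, clusters 3 and 6 had 72.3 and 74.2 CPM, and clusters 2, 4, 7 and 10 had 12.3 to 18.2 CPM. Cluster 4 is shallow, with a median of 3816 UMIs and 2.33% mitochondrial UMIs (12716 to 25147 UMIs and 1.03 to 1.71% in the other 9), and its Tlr4 rests on 8 UMIs. In cluster 13 the summed endothelial markers stood at 150 CPM, against 10.9 to 31.0 CPM in the other 9 clusters, with 4 of 7 detected and Cdh5, Plvap and Emcn at 0; their part in the Tlr4 level was not tested. The same cluster was lowest in Cd14 (534 CPM) and Tlr2 (176 CPM). Tlr1 was highest in clusters 1 (87.8 CPM; led by Il12b, Cxcl3 and Npnt) and 3 (80.5 CPM; Tgfbr1, Cx3cr1), and lowest in clusters 2 (23.2 CPM) and 10 (14.2 CPM). Clusters 2 and 10 are led by heat-shock and immediate-early genes such as Hspa1a, Hspa1b, Fosb and Jun, and their dissociation-induced genes summed to 14436 and 27454 CPM, against 1857 to 9122 CPM in the other 8; the part of dissociation was not tested. Tlr13 ran from 6.61 CPM in cluster 10 to 67.3 CPM in cluster 6 (led by Lpar6 and Slc40a1, with Pparg among its leading genes). Cd14 was highest in cluster 7 (2493 CPM; led by Il10 and Gdf15). Cd14 (1.39-fold in cluster 7), Tlr2 (176 to 461 CPM) and Ticam1 (15.4 to 36.1 CPM) had no cluster past the call on the high side.

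**Figure D2:**
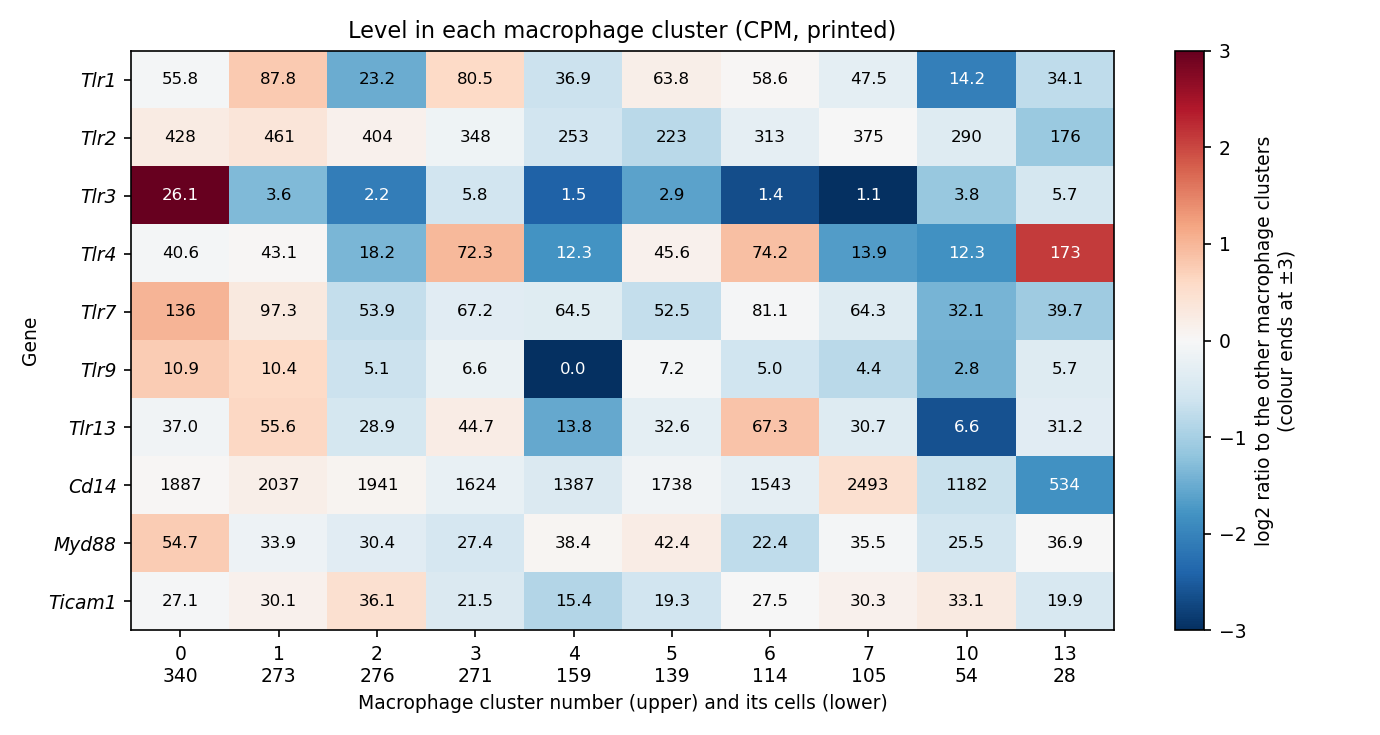
Level of each gene (CPM, printed) in 10 macrophage clusters, with the number of cells under each cluster number; the colour is the log2 ratio to the other macrophage clusters. Tlr3, Tlr7 and Myd88 peak in cluster 0 (26.1, 136 and 54.7 CPM) and Tlr4 peaks in cluster 13 (173 CPM).

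The relation to interferon output was read over single macrophages. Macrophages were ranked by Ifit3 UMIs per RNA UMI within deciles of depth, and the 600 cells of the upper and of the lower tercile were compared (median depths 20218 and 20209 UMIs). Ifit3 was at 0 in 62.6% of macrophages: all 600 lower cells and 40 of the upper 600 had none, so that ties were ordered at random. Ifit3 and Ifit3b are near-identical copies, and their reads may not all be told apart. The ranking is a range, not a cell type, and the upper cells were largely cluster 0 (53.0%, against 0.5% of the lower cells).

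Tlr3 stood at 19.4 CPM (17.0 to 22.1) in Ifit3-high and 2.04 CPM (1.32 to 3.01) in Ifit3-low macrophages, a ratio of 9.51 (6.28 to 15), with a UMI in 23.8 and 3.33% of cells. Tlr7 stood at 111 against 67.5 CPM (1.65-fold, 1.51 to 1.80). Myd88 stood at 49.9 against 30.8 CPM (1.62-fold, 1.42 to 1.85), and Tlr9 at 9.71 against 6.29 CPM (1.54-fold, 1.15 to 2.08; 1.45-fold when no doublets were removed). These 4 were called higher and none of the 10 lower, beside 6.61% of 9042 genes called higher and 7.24% called lower. The other 6 lay between 0.908 (Tlr13) and 1.09 (Tlr4), with Ticam1, the adaptor of TLR3, at 1.02 (0.878 to 1.19), Tlr2 at 1.07, Tlr1 at 0.992 and Cd14 at 0.956. The median log2 ratio of the 10 was 0.11, against -0.12 over all genes.

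Without cluster 0, the ratio of Tlr3 was 1.77 (1.10 to 2.90), that of Tlr7 1.13 (1.01 to 1.26), that of Myd88 1.26 (1.07 to 1.47) and that of Tlr9 0.966 (0.683 to 1.37). None of the 10 was then called higher, since Tlr3 held only 80 UMIs in the 2 groups. Ifit3 was found in 97.6% of cluster 0 cells, against 37.4% of all macrophages. Without that cluster, more of the upper tercile had 0 Ifit3 UMIs and was filled by the random order of ties. The part of this random order in the drop of the ratios was not tested. Among cells of cluster 0 only, Tlr3 was 1.78-fold (1.24 to 2.59) and Myd88 1.56-fold (1.22 to 2.01) higher in the upper tercile, and Tlr7 1.18-fold (1.01 to 1.37). Tlr9 was 1.04-fold in the same comparison. Between Ifit3-high and Ifit3-low cells the summed dissociation-induced genes went the other way, at 4342 against 6641 CPM (7 of 14 called lower), and the summed monocyte markers were 108 against 64.3 CPM (11 of 11 detected in both). The summed plasmacytoid dendritic markers were 1057 against 743 CPM, with 2 and 1 of 7 at 0. Over all macrophages this list summed to 840 CPM, of which Bst2 held 535 and Tcf4 238 CPM, while Ccr9 was at 1.98 CPM. The sum therefore rests mainly on Bst2 and Tcf4 and does not by itself show plasmacytoid cells. The part of the dissociation-induced, monocyte and plasmacytoid genes in the result was not tested.

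**Figure D3:**
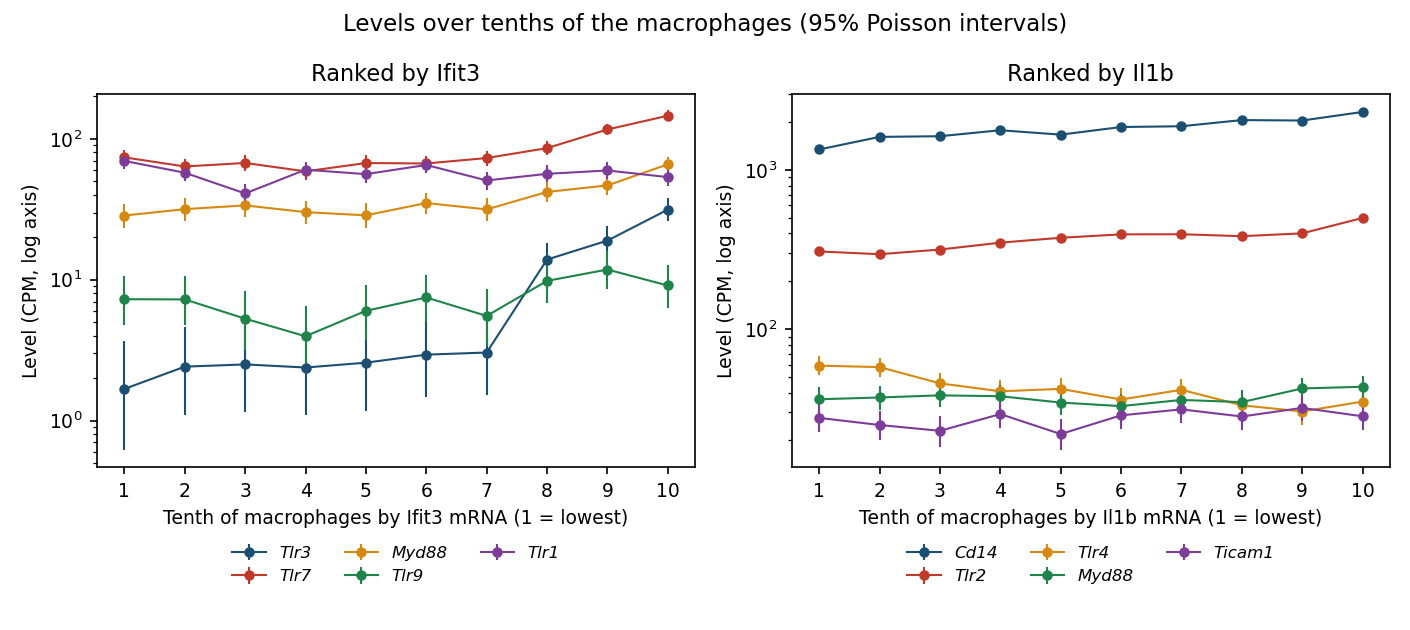
Levels (CPM, log axis; 95% Poisson intervals) of 5 genes over deciles of macrophages ranked by Ifit3 (left) and by Il1b (right) within bins of equal depth. On the left Tlr3 stays at or below 3.04 CPM through the seventh decile and reaches 31.4 CPM in the tenth. Deciles 1 to 4 on the left hold 0 Ifit3 UMIs and are in random order. On the right Cd14 and Tlr2 are higher and Tlr4 lower toward the high end.

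Deciles 1 to 4 of the Ifit3 ranking held 0 Ifit3 UMIs, and the fifth and sixth 1.15 and 12.6 CPM. Cells without Ifit3 were ordered at random, so that flat levels over these deciles show neither a shape nor a threshold. Tlr3 was 1.68 CPM (0.616 to 3.65) in the lowest decile, 3.04 CPM in the seventh, 13.9 CPM in the eighth and 31.4 CPM (25.9 to 37.8) in the tenth. Tlr7 went from 73.9 to 146 CPM (134 to 159) and Myd88 from 28.5 to 65.9 CPM (57.8 to 74.8), again over the last 3 deciles. At equal depth (5000 UMIs per cell), 1.24% (0.695 to 2.03) of 1211 cells without Ifit3 held a Tlr3 UMI, against 11.8% (7.26 to 17.8) of 161 cells with 5 or more Ifit3 UMIs. The corresponding shares were 27.2 and 51.6% for Tlr7 and 14.4 and 29.8% for Myd88, whereas those for Tlr1 were 22.1 and 16.8%, with overlapping intervals. Spearman's rho with Ifit3 over 1669 thinned macrophages, which share 1 library, was 0.184 for Tlr3, 0.165 for Tlr7 and 0.123 for Myd88, and lay between -0.053 and 0.069 for the other 7. Per UMI over all 1792 macrophages, and so with depth, the same 3 values were 0.354, 0.263 and 0.225. They are given as a description.

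**Figure D4:**
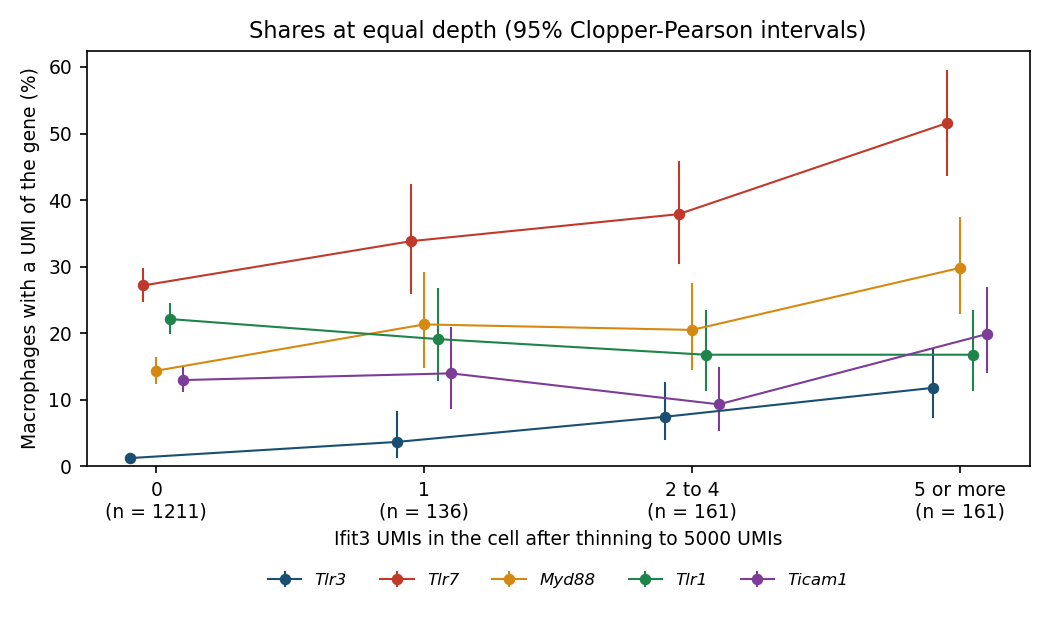
Share of macrophages with a UMI of each gene (%; 95% Clopper-Pearson intervals) against the Ifit3 UMIs of the cell, all cells thinned to 5000 UMIs. Tlr3 goes from 1.24 to 11.8% and Tlr7 from 27.2 to 51.6%, while the intervals of Tlr1 overlap throughout.

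Tlr8 was 36.1 against 13.6 CPM in Ifit3-high and Ifit3-low cells (2.65-fold, 2.21 to 3.18), the only 1 of 7 other receptors and co-receptors called. Of 9 transcription factors 2 were higher, Irf7 (140 against 17.5 CPM, 7.99-fold), the factor that TLR7 and TLR9 use for interferon, and Irf1 (555 against 135 CPM, 4.12-fold). Irf3, the factor below TRIF, had a ratio of 0.932 (0.753 to 1.15). Among 17 negative regulators Socs1 (7.72-fold), Trim30a (4.99-fold) and Socs3 (1.51-fold) were higher. Of 21 adaptors and kinases Peli1 (2.11-fold) and Map3k8 (1.52-fold) were higher, and no gene of the 9 in the trafficking list was called (Unc93b1 1.02-fold, 0.983 to 1.05). The interferon list had 12 of 12 higher, Ifnb1, interferon beta itself, at 72.7 against 2.37 CPM, and the NF-kB list 5 of 13 higher, with Il6 at 52.8 against 12.7 CPM and Ccl4 at 6552 against 1817 CPM, and Cxcl2 lower (0.570-fold).

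The start-site windows of Ifit3, Myd88 and Tlr3 are shown because these genes were high in the same macrophages, and that of Tlr2 because it is the most abundant receptor and was higher with Il1b. The windows run from 250 bases before to 50 bases after the start site in RefSeq's GRCm38.p6, the assembly of mm10, 5′ to 3′ along the gene. Capitals mark matches to an interferon-response core (GAAA, any 2 bases, GAAA) or to a kappa B pattern (GGG, any 5 bases, CC), searched on both strands. Ifit3 lies on the plus strand, chr19:34583279-34583578, Myd88 on the minus strand, chr9:119339969-119340268, Tlr3 on the minus strand, chr8:45410331-45410630, and Tlr2 on the minus strand, chr3:83841559-83841858. For Ifit3, Tlr3 and Tlr2 the start site of the table lies inside the full span of the gene.
Ifit3: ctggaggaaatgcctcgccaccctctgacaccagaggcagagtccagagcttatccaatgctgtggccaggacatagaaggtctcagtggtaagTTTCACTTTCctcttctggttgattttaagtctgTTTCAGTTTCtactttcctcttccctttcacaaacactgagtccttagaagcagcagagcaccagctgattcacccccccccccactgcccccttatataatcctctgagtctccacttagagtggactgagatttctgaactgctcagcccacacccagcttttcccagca
Myd88: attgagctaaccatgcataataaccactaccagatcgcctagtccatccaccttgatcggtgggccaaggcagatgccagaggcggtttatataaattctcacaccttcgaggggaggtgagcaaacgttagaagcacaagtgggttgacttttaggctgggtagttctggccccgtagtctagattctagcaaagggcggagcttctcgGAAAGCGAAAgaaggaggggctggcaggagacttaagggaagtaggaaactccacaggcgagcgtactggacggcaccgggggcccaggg
Tlr3: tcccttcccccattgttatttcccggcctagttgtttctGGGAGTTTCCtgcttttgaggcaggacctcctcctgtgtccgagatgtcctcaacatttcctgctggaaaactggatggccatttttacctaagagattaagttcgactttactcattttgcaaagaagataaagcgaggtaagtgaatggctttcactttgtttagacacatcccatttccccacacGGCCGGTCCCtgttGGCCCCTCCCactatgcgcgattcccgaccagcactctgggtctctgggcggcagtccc
Tlr2: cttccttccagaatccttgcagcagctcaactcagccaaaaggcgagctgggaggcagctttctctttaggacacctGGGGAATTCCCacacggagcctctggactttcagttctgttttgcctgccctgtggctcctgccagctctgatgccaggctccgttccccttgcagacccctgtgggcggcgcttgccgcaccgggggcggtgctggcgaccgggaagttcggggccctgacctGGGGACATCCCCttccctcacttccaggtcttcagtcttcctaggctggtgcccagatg
The interferon-response core occurs in 3.44% of 32851 such windows, 2 times in that of Ifit3 (from -156 and -122, on the minus strand) and 1 time in that of Myd88 (from -40); the Tlr3 window does not hold these letters. The kappa B pattern occurs in 50.8% of windows, so that its presence sets a gene apart little. Tlr2 had 7 overlapping matches in 2 stretches (near -173 and near -9), Tlr3 had 3 and Ticam1 1. TGANTCA, the AP-1 pattern, is in 7.81% of windows and in those of Ifit3 and Tlr9, and GAGGAA, a PU.1 pattern, is in 28.3% and in those of Tlr1, Tlr9, Tlr13, Ticam1 and Ifit3. A match is a description of the letters and not a measured site. Windows were matched for Tlr1, Tlr2, Tlr3, Tlr9, Tlr13, Myd88 and Ticam1, 7 of the 10 genes.

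The relation to Il1b, a main product of NF-kB signalling, was read in the same way. Il1b was abundant (1865 CPM in macrophages, a UMI in 87.6%), and the upper and lower terciles held medians of 72 and 1 UMIs. Cd14 stood at 2124 CPM (2099 to 2150) in Il1b-high and 1547 CPM (1525 to 1570) in Il1b-low macrophages, 1.37-fold (1.35 to 1.40). Tlr2 stood at 424 CPM (413 to 436) against 310 CPM (300 to 320), also 1.37-fold (1.31 to 1.43). Both differ beyond counting error, and neither reaches the 1.5-fold call. Tlr4 went the other way, 34.0 CPM (30.8 to 37.4) against 52.1 CPM (48.0 to 56.3), 0.653-fold (0.575 to 0.740), and was the 1 gene of the 10 called lower, with none called higher, beside 5.53% of 9084 genes called lower and 2.82% called higher.

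The remaining receptors were lower by less: Tlr1 0.788-fold (0.708 to 0.878), Tlr7 0.822-fold (0.752 to 0.898) and Tlr13 0.822-fold (0.722 to 0.936), with Tlr3 and Tlr9 at 0.760 and 0.798 and intervals that reach past 1. Myd88 (1.08-fold, 0.949 to 1.23) did not differ beyond counting error, and Ticam1 was 1.18-fold (1.01 to 1.38). Over deciles of Il1b, Cd14 went from 1348 to 2321 CPM, Tlr2 from 308 to 501 CPM and Tlr4 from 59.0 to 35.1 CPM. The call of Tlr4 rests on small margins: without cluster 13, which held 3.5% of Il1b-low and 0.333% of Il1b-high cells, the ratio was 0.688, and without clusters 2 and 10 it was 0.711. Clusters 2 and 10 made up 19.7 and 5.5% of Il1b-high and 10.5 and 1.5% of Il1b-low cells, and the dissociation-induced genes were 7510 against 4033 CPM (12 of 14 higher); without those clusters Cd14 was 1.44-fold and Tlr2 1.28-fold.

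The NF-kB output list went with Il1b, with 9 of 12 genes higher, led by Cxcl1 (267 against 41.3 CPM), Il1a (359 against 70.7 CPM), Il12b and Ptgs2. Of 17 negative regulators Nfkbiz (2.62-fold), Dusp1 and Zc3h12a were higher and Socs1 lower (0.646-fold). None of 21 adaptors and kinases, 9 trafficking genes or 7 other receptors was called in either direction. Irf7 was lower (0.664-fold), and so were 2 of 13 interferon output genes, Ifit3b and Ifit3 (218 against 346 CPM), while Ifnb1 was higher (48.0 against 10.8 CPM). Spearman's rho with Il1b over the thinned macrophages was 0.189 for Cd14 and 0.142 for Tlr2 (0.245 and 0.237 per UMI over all macrophages), and between -0.048 and 0.013 for the other 8.

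**Figure D5:**
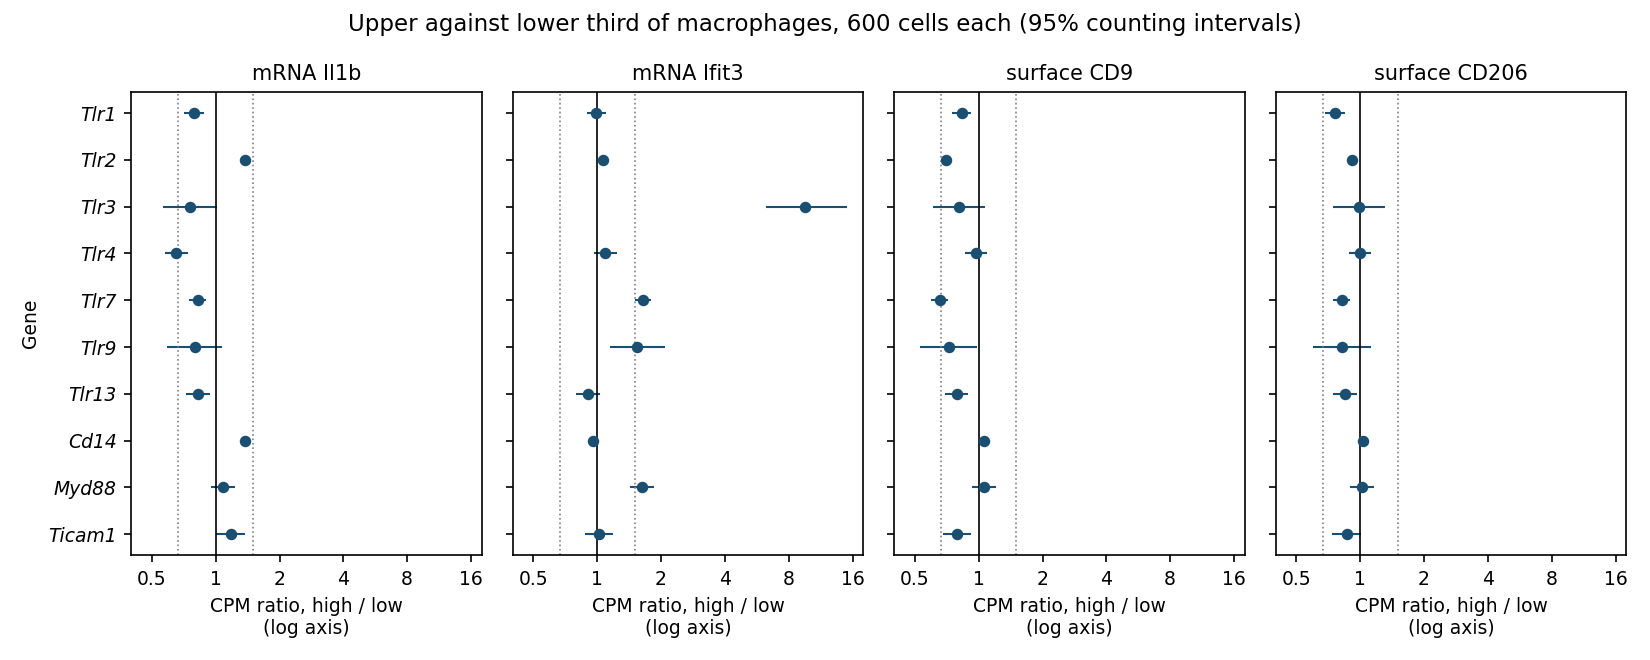
Ratio of CPM between the upper and the lower tercile of macrophages (log axis; 95% counting intervals), ranked by Il1b mRNA, Ifit3 mRNA, surface CD9 or surface CD206; dotted lines mark 1.5-fold either way. Tlr3 stands at 9.51 for Ifit3, Tlr4 at 0.653 for Il1b and Tlr7 at 0.655 for CD9, and no gene passes the call for CD206.

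Surface CD9, a tetraspanin, was compared between 600 cells each with medians of 2899 and 49 antibody UMIs. Tlr7 was 66.9 CPM (62.4 to 71.5) in CD9-high and 102 CPM (96.5 to 108) in CD9-low macrophages, 0.655-fold (0.599 to 0.715). It was the 1 gene called lower and none was called higher, beside 2.69% of 9095 genes called lower and 6.05% called higher. Tlr2 was 316 against 449 CPM (0.705-fold, 0.676 to 0.734), and Tlr9, Tlr13, Ticam1 and Tlr1 lay between 0.724 and 0.831. Cd14 (1.05-fold), Myd88 (1.06-fold) and Tlr4 (0.970-fold) were nearly level. Cluster 1 made up 8.0% of CD9-high and 26.3% of CD9-low cells, and cluster 5 made up 14.8 and 1.5%. The summed monocyte markers were 95.9 against 52.6 CPM (11 of 11 detected in both) and the endothelial markers 28.6 against 13.3 CPM (7 of 7). The endocrine markers were 2560 against 3777 CPM (13 of 13 detected in both), and without the cells rich in hormone and acinar enzyme RNA the Tlr7 ratio was 0.668, just short of the call. The part of these genes was not tested. Cluster 1 has the highest Tlr2 level (461 CPM) and 97.3 CPM of Tlr7, and cluster 5 has 223 and 52.5 CPM. Around them Cd36 (413 against 1216 CPM) and Cd180 (0.639-fold), a TLR4-like surface protein, were lower, and Ikbke (20.2 against 2.86 CPM) and Irak3 (1.64-fold), a brake on MyD88 signalling, were higher. Of the NF-kB output 6 of 13 were lower, led by Cxcl1 (62.9 against 217 CPM) and Il1a, although Il1b itself was 1.13-fold.

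By surface CD206, the mannose receptor, none of the 10 genes was called, beside 2.58% of 9126 genes called higher and 1.51% called lower. The upper and lower terciles held medians of only 28 and 2 CD206 antibody UMIs. They also differed in CD9, with medians of 1363.5 and 190.5 antibody UMIs, and cluster 1 made up 7.33 and 20.8% of their cells. Ratios ran from 0.764 (0.685 to 0.851) for Tlr1 to 1.03 (1.01 to 1.05) for Cd14, with Tlr7 at 0.817 (0.748 to 0.893). Mrc1, which encodes CD206, was 63.9 against 5.13 CPM. Of the other lists, Cd36 (0.542-fold), Zc3h12c (0.627-fold) and Cxcl1 (0.656-fold) were lower, and Ifnb1 was higher (40.7 against 19.1 CPM).

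Across the 15 clusters of all cell types with at least 25 cells, the genes most like each member were found by Pearson's r of log2(CPM + 10), given as a description over clusters that share 1 library. Tlr2 and Cd14 resembled each other (r = 0.98), and Plin2, a lipid droplet protein, was among the nearest of both (0.99 and 0.99). Among the macrophage clusters alone Cd14 and Tlr2 peaked apart. Cd14 was highest in cluster 7 (2493 CPM), where Tlr2 was 0.997-fold of the other macrophages, and Tlr2 was highest in cluster 1 (461 CPM). Tlr3 was nearest to Calhm6 (0.87), Uba7 (0.85), the activating enzyme for ISG15, and Gm4951 (0.84). Tlr13 was nearest to the potassium channel gene Kcnk13 (0.97), Tlr1 to the nucleotide receptor P2ry6 (0.96), Tlr7 to Sdc4 (0.93) and Tlr9 to Ptprj (0.91). Tlr4 was nearest to Galc (0.87), Myd88 to Tspo (0.94), followed by Ifi211 (0.92), and Ticam1 to Snx8 (0.94).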

How the data were processed

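The deposited matrix holds whole-number counts of UMIs for 32285 genes and 2 antibody tags, written by Cell Ranger 8.0.1 per the file headers, on mm10 per the submitters' processing notes. The choice of barcodes is not stated in what was used here. Cells needed 200 genes and no more than 10% of UMIs from mitochondrial genes (2215 of 2237 barcodes passed). Scrublet, run in scanpy 1.11.5, marked 7 cells (0.316%) at its automatic threshold, so the 40 cells scored highest (0.8% per 1000 barcodes) were removed instead. Clustering used 2000 variable genes, 30 components, 15 neighbours and leidenalg 0.10.2 at resolution 1. A cluster took a name when 50% of a list, and 3 or more markers, were in 25% of its cells at 2 times the CPM of other cells (10 CPM added). Lists of markers, and the members and pathway lists, were chosen with earlier results of these data known.

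With 1 sample there is no test between samples, and intervals, at 95%, cover counting error only. A sum of 0 was set at a floor of 3 counts. The ratio step was checked on simulated counts. List genes were named with 100 UMIs and a 1.5-fold ratio, up to 4 each way per list, by the bound closest to 1. All listed receptors could be named, and Irak1, Irak4, Traf6, Irf3, Unc93b1 and Ticam2 were added outside that rule after their values were seen. Likeness used members with 200 UMIs and genes with 500. Alternatives were a gate of 1000 or 4000 CPM, no doublet removal, 1000 genes per cell, means over cells, no endocrine- or acinar-rich cells, resolution 0.5, 50% ranges, ranking without depth, and 20-UMI and 2-fold rules. Leaving out clusters or top cells was chosen after seeing the data.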

Additional observations from a re-analysis of the deposited data

How the results depend on the processing

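Each count of called genes was recomputed under the alternatives. The count of 10 higher against lymphocytes was 9 at 2-fold and 8 without the Ifit3-led cluster, and 10 otherwise. The count of 4 higher with Ifit3 was 1 with upper against lower 50% of cells, 1 at 2-fold, 0 without the Ifit3-led cluster and 2 within it, and 3 with no doublet removal, with means over cells and when ranked without regard to depth, where Tlr9 lost its call (1.45, 1.44 and 1.495). The 1 gene lower than in dendritic-like cells became 2 with means over cells and without the Ifit3-led cluster and 0 at 2-fold. The 1 gene lower with Il1b (Tlr4) became 0 with means over cells, with 50% ranges, at 2-fold, without the heat-shock-led clusters, without the Gm47507-led cluster and within the Ifit3-led cluster. The 1 gene lower with CD9 (Tlr7) became 0 without the cells richest in endocrine and acinar RNA, with 50% ranges, at 2-fold, without gated cells of clusters named otherwise, without the Ifit3-led cluster and within it, and the count lower with CD206 was 1 (Tlr9, 0.659-fold) without that cluster. The log2 ratios of 2 called genes changed sign, without the Ifit3-led cluster: Tlr3 against lymphocytes (-0.13) and Tlr9 with Ifit3 (-0.049). The cause was not tested. Of 324 recomputed ratios of called genes under 16 alternatives, cluster peaks not included, 322 kept their direction and 300 stayed past the 1.5-fold call. The 2-fold rule is not among these 16, so that calls lost at 2-fold are not counted here. At 2-fold, genes of all kinds called higher and lower were 71 and 69 with Il1b (256 and 502 at 1.5-fold), 321 and 119 with Ifit3 (598 and 655), 168 and 77 with CD9 (550 and 245), 65 and 34 with CD206 (235 and 138), and 1327 were lower than in dendritic-like cells (2783). With a minimum of 20 UMIs the same counts were 639 and 1410, 983 and 1566, 1387 and 643, 787 and 629, and 3567 were higher than in dendritic-like cells (2272). No paired analysis was possible because the series holds 1 sample of cells. Depth limits Tlr3 and Tlr9 most, with 298 and 268 UMIs in 1792 macrophages, and the lymphocyte levels rest on 0 to 30 UMIs a gene.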
